A study of Homo sapiens and Mus musculus with 16 samples.

Results

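HMGCS1, MVD, FDPS, FDFT1, SQLE, LSS, CYP51A1 and DHCR7 encode enzymes of cholesterol synthesis, and their transcripts were followed between P-bodies and the surrounding cytoplasm. They were taken by symbol from the human count table, where 8 of 8 were found among 22286 genes. In the mouse table of 15881 genes, 7 of 8 symbols were found when case was ignored. Mouse Cyp51, the counterpart of CYP51A1, carries another symbol there and was read with the further enzymes of the pathway. All the members are synthesis enzymes, and none takes up cholesterol from outside the cell.

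Cholesterol is built from acetyl-CoA. HMGCS1 joins acetyl units into HMG-CoA in the cytosol, MVD makes isopentenyl diphosphate from mevalonate diphosphate, and FDPS assembles isoprene units into farnesyl diphosphate. At the membrane of the endoplasmic reticulum FDFT1 couples farnesyl units into squalene, SQLE oxidises squalene, LSS closes it into lanosterol, CYP51A1 removes a methyl group from lanosterol and DHCR7 carries out a last reduction to cholesterol. SREBP transcription factors raise the transcription of these genes together when membrane sterol is low. P-bodies are cytoplasmic condensates that hold RNA with repressors of translation and decay factors, and an RNA held there is generally taken to be translated less.

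P-body-seq was run in 4 cell types, with 2 P-body and 2 cytoplasm libraries in each, 16 in all. Human HEK293T, an embryonic kidney line (HEK293T-LSM14a-GFP), and mouse embryonic stem cells (KH2-LSM14a-GFP, in serum-LIF) were read as total RNA by the Snap seq protocol. Liver bud progenitors and neurons at day 20 of differentiation came from a single human embryonic stem cell line (UCLA4-LSM14a-GFP) and were read as polyA RNA with the V4 ultra and Nextera XT kit. All groups carried the P-body protein LSM14A fused to GFP, which the study placed at the AAVS1 locus in UCLA4 and delivered by lentivirus under an EF1a promoter in HEK293T and mouse embryonic stem cells. GFP-positive particles were sorted from the resuspended pellet of a lysate cleared of nuclei, and the cytoplasm libraries are that material before the sort, so they also contain P-bodies. Library kit and cell type cannot be told apart where HEK293T or mouse cells are set beside the other 2, and in bulk libraries fewer P-bodies and less RNA per P-body cannot be told apart.

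The library totals ran from 6368953 to 17972284 counts, and 3 counts corresponded to 0.167 to 0.471 CPM, the count of a gene scaled to a common library size. Replicates correlated over genes at a Spearman rho of 0.962 to 0.988 except the neuron P-body pair, at 0.915, and neuron results are therefore also given without each of these libraries. Ribosomal RNA genes took 3.09 to 13.4% of counts in P-bodies and 9.63 to 24.9% in cytoplasm. Of 12 hepatic endoderm markers, 12 reached 1 CPM in liver bud cytoplasm, where they summed to 515 to 527 CPM, but AFP averaged 8.04 and APOA1 2.05 CPM, and 6 markers of pluripotent cells still summed to 1490 to 1540 CPM. There 8 of 8 neuron markers also reached 1 CPM and summed to 233 to 237 CPM, and 6 neural progenitor markers summed to 258 CPM. In neuron cytoplasm 8 neuron markers summed to 12100 to 12700 CPM, the hepatic markers to at most 5.03 CPM, 6 neural progenitor markers to 569 to 578 CPM and the 4 of 5 glial markers in the table to at most 12.7 CPM. The sum of 4 nuclear RNAs was lower in P-bodies than in cytoplasm in liver bud progenitors (1030 to 1090 against 2910 to 2980 CPM), neurons (743 to 835 against 1360 to 1510) and mouse cells (606 against 726 to 734), and higher in HEK293T (501 to 521 against 359 to 381). NEAT1 went against the sum in neurons (37.9 CPM in P-bodies, 26.9 in cytoplasm). In HEK293T NEAT1 was at 185 against 66.5 CPM and MALAT1 at 283 against 266. Mouse cytoplasm held 7 of 7 embryonic stem cell markers at 5590 to 5620 CPM, and 0 of 6 fibroblast markers were listed in the mouse table. The part of these other cell types and of nuclear RNA in the results was not tested.

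The members split by codon use, read from their MANE Select transcripts (GENCODE 44). Codons ending in G or C made up 34.9% of the coding sequence in HMGCS1, 39.8% in SQLE and 40.8% in CYP51A1, against 61.7% in FDFT1, 67.1% in FDPS, 77.6% in LSS, 81.3% in MVD and 82.6% in DHCR7. The median over the 17306 human genes with a MANE coding sequence was 60.4%. Stretches of 50 codons show this contrast for HMGCS1, CYP51A1, MVD and DHCR7, chosen as those nearest to the whole coding sequence in base composition. SQLE, with a smaller share than CYP51A1, is not shown. Letters are 5′ to 3′ on the coding strand, and capitals mark a G or C in the third position of a codon.
HMGCS1: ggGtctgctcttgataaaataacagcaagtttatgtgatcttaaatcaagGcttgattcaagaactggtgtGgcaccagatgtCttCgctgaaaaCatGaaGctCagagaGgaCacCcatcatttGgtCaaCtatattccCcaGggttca
CYP51A1: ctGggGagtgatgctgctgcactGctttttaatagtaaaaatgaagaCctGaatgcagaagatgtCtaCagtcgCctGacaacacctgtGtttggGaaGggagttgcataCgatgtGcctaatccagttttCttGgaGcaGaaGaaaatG
MVD: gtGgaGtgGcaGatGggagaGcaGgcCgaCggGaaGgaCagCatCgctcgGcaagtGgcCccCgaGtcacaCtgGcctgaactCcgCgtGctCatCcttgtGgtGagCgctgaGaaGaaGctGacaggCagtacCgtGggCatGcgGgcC
DHCR7: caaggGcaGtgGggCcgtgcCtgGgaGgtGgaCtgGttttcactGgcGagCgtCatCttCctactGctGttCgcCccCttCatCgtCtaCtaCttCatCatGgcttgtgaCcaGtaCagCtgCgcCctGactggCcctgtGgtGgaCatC
The HMGCS1 stretch covers codons 395 to 444 and 17 of its 50 codons end in G or C, as do 20 of 50 in CYP51A1 (codons 115 to 164). In MVD (codons 168 to 217) the number is 40 of 50, and in DHCR7 (codons 26 to 75) it is 41 of 50.

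In HEK293T most of the pathway was under-represented in P-bodies. MVD, FDPS, FDFT1, LSS, CYP51A1 and DHCR7 fell, while HMGCS1 and SQLE rose, so 6 of 8 members were lower and 2 of 8 higher in P-bodies, where 22.8% of all genes tested were lower and 19.3% higher. The median log2 ratio of P-body to cytoplasm was -0.88 over the members and -0.01 over all genes. Over the 11694 genes with at least 1 CPM and a coding sequence read, the median was -0.125. Values of a library are TMM-scaled CPM, that is, CPM after the composition scaling used by the test.
HMGCS1, the earliest step among the members, stood at 76.6 and 67.3 CPM in cytoplasm and at 93.8 and 93.5 CPM in P-bodies. Its log2 ratio was 0.38 ± 0.08 (SE), with an adjusted p of 6.66e-05 by edgeR's quasi-likelihood test. Both P-body libraries lay above both cytoplasm libraries. FDPS went the other way, from 32.9 and 36.9 CPM in cytoplasm to 16.0 and 13.6 in P-bodies, a log2 ratio of -1.24 ± 0.14 (adjusted p = 6.57e-12). MVD, the least abundant member here, ranged from 9.24 to 13.9 CPM in cytoplasm and from 4.35 to 6.86 in P-bodies (-1.05 ± 0.21, adjusted p = 2.73e-05).
Among the membrane enzymes, SQLE rose only slightly, from 199 and 188 CPM to 221 and 224 (log2 ratio 0.20 ± 0.06, adjusted p = 0.005). FDFT1, the most abundant member in the cytoplasm, fell from 221 and 252 CPM to 161 and 154 (-0.59 ± 0.06, adjusted p = 7.87e-12). LSS, CYP51A1 and DHCR7 had log2 ratios of -1.05 ± 0.14, -0.71 ± 0.12 and -1.22 ± 0.10. For DHCR7 that was a fall from 61.6 and 65.2 CPM to 28.7 and 25.7, which is 2.34-fold. SQLE is the weakest of these calls: its adjusted p was 0.401 when libraries were scaled by size only and 0.078 without P-body replicate 2.

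**Figure D1:**
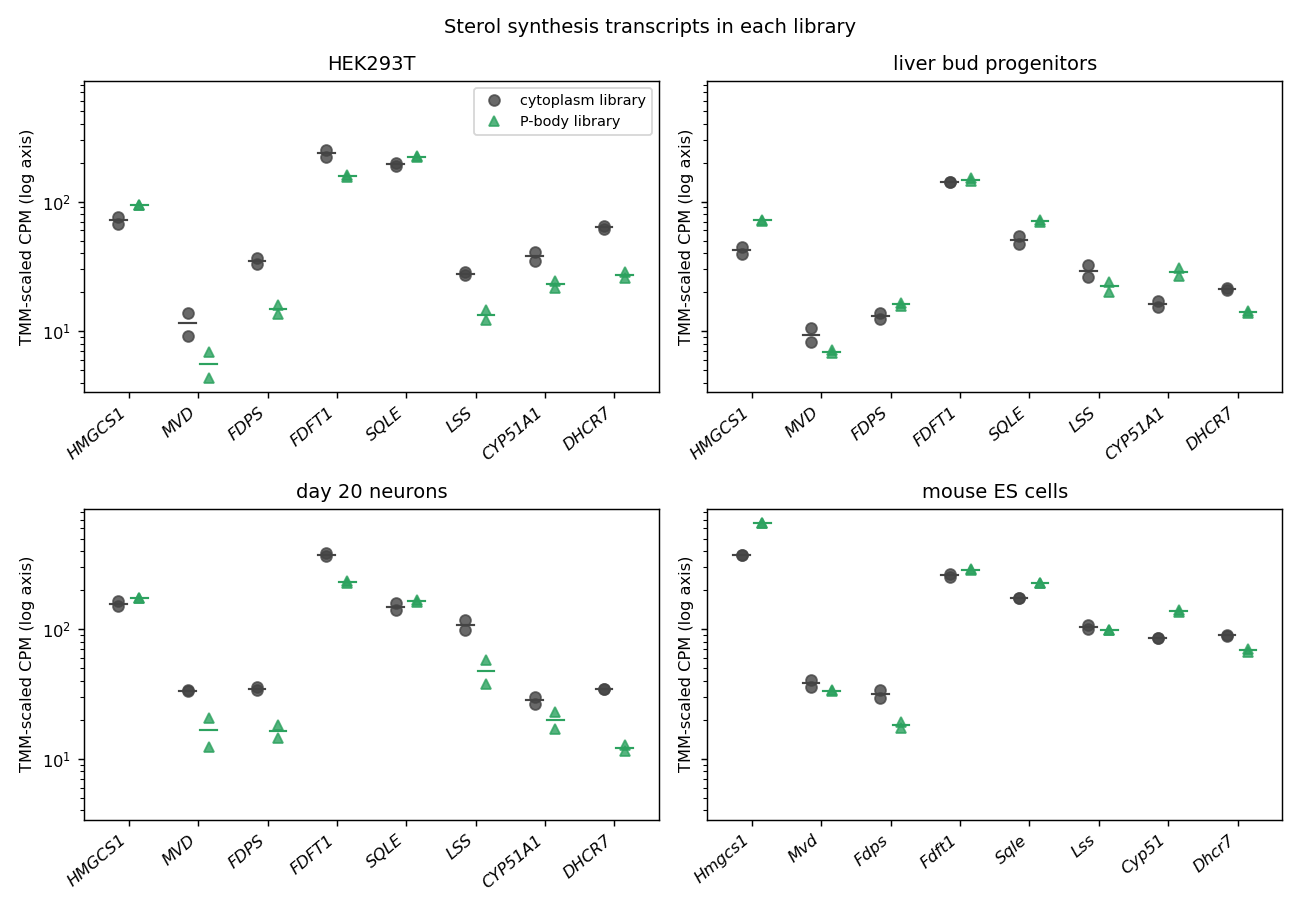
TMM-scaled CPM (log axis) of each member in each cytoplasm library (grey circles) and P-body library (green triangles), with a bar at the mean of the 2 libraries, in 4 cell types. HMGCS1 triangles sit above the circles in all 4 panels, while DHCR7 triangles sit below them, from 34.5 to 12.1 CPM on average in neurons.

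In liver bud progenitors the pathway was divided. HMGCS1, SQLE and CYP51A1 rose in P-bodies, LSS and DHCR7 fell, and MVD, FDPS and FDFT1 did not pass the test. These are 3 of 8 members higher and 2 of 8 lower, against 21.4% and 17.1% of all genes tested, and the members' median log2 ratio was 0.18 beside -0.09 for all genes. Over the 12999 genes with at least 1 CPM and a coding sequence read, the median was 0.08.
HMGCS1 stood at 44.7 and 39.2 CPM in cytoplasm and at 70.7 and 72.7 CPM in P-bodies, a log2 ratio of 0.78 ± 0.10 (adjusted p = 9.72e-10). CYP51A1, the lanosterol demethylase, stood at 15.4 and 17.2 CPM against 30.8 and 26.5 CPM (0.81 ± 0.16, adjusted p = 1.07e-05). SQLE rose from 54.5 and 47.2 CPM to 72.4 and 69.2 (0.48 ± 0.10, adjusted p = 3.20e-05). For each of these enzymes the fractions were separated with no overlap.
FDPS measured 12.3 and 13.8 CPM in cytoplasm and 16.6 and 15.5 in P-bodies, and its ratio of 0.30 ± 0.19 missed the threshold (adjusted p = 0.234). FDFT1 was close to even at 142 and 141 CPM against 152 and 143 (0.06 ± 0.07, with a 95% interval from -0.09 to 0.20). MVD had a ratio of -0.43 ± 0.25 (adjusted p = 0.175), and passed with library size only (-0.62, adjusted p = 0.036). The order of the falling members was led by DHCR7, which went from 20.9 and 21.5 CPM to 13.8 and 14.4 (-0.59 ± 0.17, adjusted p = 0.003), followed by LSS, from 26.2 and 32.5 CPM to 24.1 and 20.2 (-0.41 ± 0.15, adjusted p = 0.019). LSS did not pass with DESeq2 (adjusted p = 0.12), in a single fit of all human libraries (0.103) or without replicate 2 of either fraction (0.219 and 0.266).

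In neurons no member was called higher in P-bodies and 5 of 8 fell, namely MVD, FDPS, FDFT1, LSS and DHCR7. Of all genes tested, 14.6% were higher and 14.1% lower. The members' median was -0.86 and that of all genes 0.19. The latter includes genes with few counts. Over the 13062 genes with at least 1 CPM and a coding sequence read, the median was -0.121. The count of 0 higher members was also 0 at an unadjusted p under 0.05 and 0 with DESeq2.
HMGCS1 and SQLE leaned toward P-bodies without passing. HMGCS1 measured 150 and 164 CPM in cytoplasm and 173 and 173 in P-bodies (log2 ratio 0.14 ± 0.10, adjusted p = 0.329). SQLE measured 140 and 159 CPM against 164 and 167 (0.14 ± 0.10, adjusted p = 0.33). CYP51A1 lay lower in P-bodies in both libraries, at 26.5 and 30.2 CPM against 17.1 and 22.8, yet its ratio of -0.50 ± 0.22 missed the threshold (adjusted p = 0.115).
DHCR7 had the lowest ratio of the 8, falling from 34.5 and 34.5 CPM to 12.8 and 11.5 (-1.51 ± 0.22, adjusted p = 0.00015, 2.84-fold). FDFT1 fell from 367 and 384 CPM to 235 and 226 (-0.70 ± 0.09, adjusted p = 3.61e-05). FDPS fell from 35.6 and 33.7 CPM to 18.1 and 14.5 (-1.09 ± 0.21, adjusted p = 0.0017). None of these fractions overlapped.
LSS and MVD, by contrast, differed widely between the P-body libraries. LSS stood at 118 and 99.5 CPM in cytoplasm and at 38.1 and 57.8 in P-bodies (-1.18 ± 0.18), and MVD at 33.1 and 33.7 CPM against 20.7 and 12.4 (-1.02 ± 0.25). Without P-body replicate 1 the ratio of LSS was -0.91 and that of MVD -1.43, and without P-body replicate 2 they were -1.51 and -0.69. The number of members lower was 5 without the first and 6 without the second, when CYP51A1 passed at -0.73 (adjusted p = 0.006), while without the first its ratio was -0.31 (adjusted p = 0.208). CYP51A1 also passed in the single fit of all human libraries (adjusted p = 0.0087).

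In mouse embryonic stem cells Hmgcs1 again rose, from 374 and 374 CPM to 660 and 662 (log2 ratio 0.82 ± 0.04, adjusted p = 5.91e-15). Sqle rose from 173 and 174 CPM to 229 and 229 (0.40 ± 0.05, adjusted p = 2.42e-07) and Fdft1 from 254 and 266 CPM to 286 and 291 (0.15 ± 0.05, adjusted p = 0.011). Fdps fell from 33.7 and 29.5 CPM to 19.1 and 17.3 (-0.80 ± 0.13) and Dhcr7 from 88.7 and 90.7 CPM to 66.9 and 70.6 (-0.38 ± 0.07). In all, 3 of 7 members were higher and 2 of 7 lower, beside 25.8% and 20.6% of all genes, with a median of -0.07 against -0.11. Over the 11592 genes with at least 1 CPM and a coding sequence read, the median was 0.04.
Mvd and Lss did not pass, at -0.19 ± 0.10 and -0.07 ± 0.06. With edgeR's low-count filter (filterByExpr) both were called lower, at -0.28 (adjusted p = 0.026) and -0.16 (0.040). Cyp51, which is read here outside the members, rose from 85.2 and 85.5 CPM to 136 and 140 (0.70 ± 0.06, adjusted p = 7.74e-10). These mouse directions rest on the composition scaling. Scaling by library size only lowered the median of all genes by 0.40, which made the unscaled Sqle level 200 and 199 CPM in cytoplasm and 198 and 200 in P-bodies (-0.0038). It turned Fdft1 to -0.25, so that Fdft1 was called lower instead of higher (adjusted p = 3.69e-05). Mvd (-0.59) and Lss (-0.48) were then also called lower, and Hmgcs1 was the only member called higher. After filterByExpr, edgeR's filter on low counts, Fdft1 was at 0.06 (adjusted p = 0.254), and it also missed the threshold with DESeq2 (adjusted p = 0.070) and without cytoplasm replicate 1 (0.068).

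**Figure D2:**
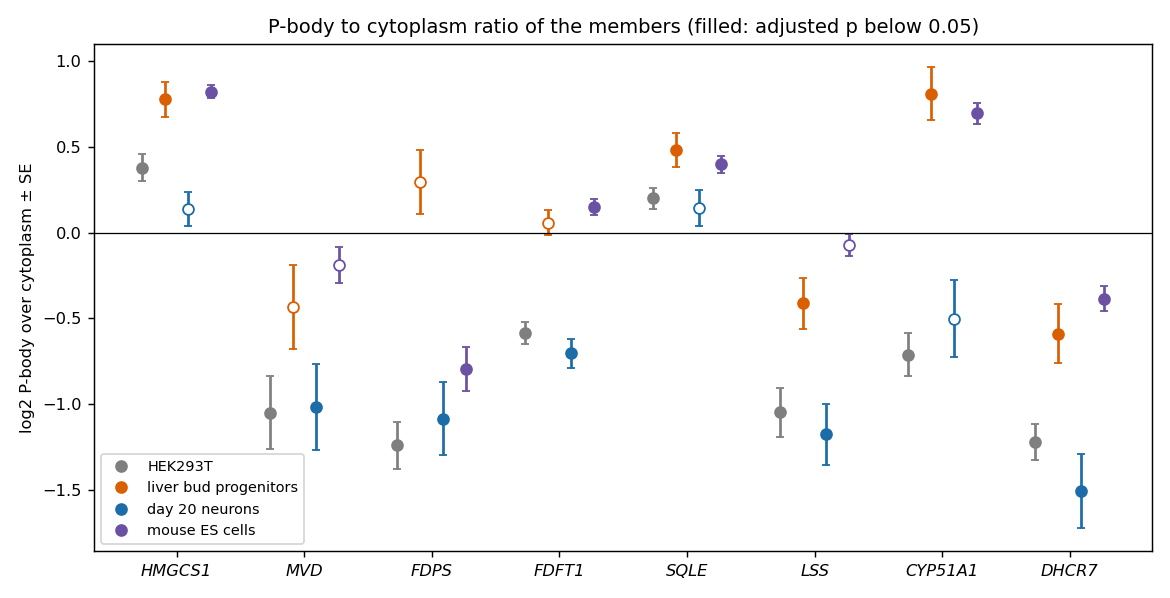
Log2 ratio of P-body over cytoplasm with its standard error for each member in HEK293T (grey), liver bud progenitors (orange), day 20 neurons (blue) and mouse embryonic stem cells (purple, Cyp51 plotted at CYP51A1). Filled points passed an adjusted p of 0.05. HMGCS1 and SQLE lie above 0 in all 4 cell types, although mouse Sqle turned to -0.0038 with library size only, and MVD and DHCR7 lie below 0.

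The ratios of the members were then compared between cell types by an interaction test. In neurons 8 of 8 members had a lower P-body ratio than in liver bud progenitors, and 5 of 8 passed, while 8.5% of all genes were lower and 9.21% higher. FDPS and CYP51A1 differed most. On the log2 scale the difference was -1.39 ± 0.28 for FDPS (adjusted p = 0.0028), -1.32 ± 0.28 for CYP51A1 (adjusted p = 0.0033), -0.92 ± 0.27 for DHCR7 (adjusted p = 0.026), -0.77 ± 0.11 for FDFT1 (adjusted p = 0.00015) and -0.64 ± 0.14 for HMGCS1 (adjusted p = 0.005). The members' median was -0.77 and that of all genes 0.23. The latter includes genes with few counts, and no median over genes with at least 1 CPM was taken for this comparison.
CYP51A1 was called higher in P-bodies of liver bud progenitors, and its ratio in neurons did not pass. LSS (-0.78 ± 0.26, adjusted p = 0.052), SQLE (-0.34 ± 0.15, adjusted p = 0.128) and MVD (-0.59 ± 0.37, adjusted p = 0.308) did not pass. These 3 moved with the neuron P-body libraries. Without replicate 1, MVD was at -1.10 (adjusted p = 0.0056), LSS at -0.60 (0.016) and SQLE at -0.43 (0.028), and without replicate 2 they were at -0.38 (0.377), -1.23 (4.84e-06) and -0.48 (0.013). LSS also passed with the replicate block (adjusted p = 0.002), without ribosomal RNA genes (0.039) and in the single fit (0.0195), as did SQLE in the single fit (0.026). No member was higher, also at an unadjusted p under 0.05 and with DESeq2. DHCR7 missed the threshold with DESeq2 (adjusted p = 0.074) and without any 1 of the 4 liver bud and 2 neuron cytoplasm libraries (0.052 to 0.103). Without neuron P-body replicate 1 the number lower was 8 and without replicate 2 it was 7. With library size only it was 3, when HMGCS1 (adjusted p = 0.222) and DHCR7 (0.164) missed, and the SQLE difference turned to 0.014.

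Against liver bud progenitors, HEK293T had lower ratios for FDPS (-1.31 ± 0.22, adjusted p = 4.31e-06), CYP51A1 (-1.29 ± 0.20, adjusted p = 5.32e-07) and FDFT1 (-0.42 ± 0.10, adjusted p = 0.0012). These 3 of 8 stand beside 12.5% of all genes lower and 15% higher. The other 5 members differed by -0.41 to -0.05, and 0 were higher, likewise at an unadjusted p under 0.05 and with DESeq2. HMGCS1 gave -0.17 with a 95% interval from -0.43 to 0.09. With library size only and after filterByExpr 6 of 8 were lower, when HMGCS1 (-0.34 and -0.35, adjusted p = 0.049 and 0.042), LSS (-0.58 and -0.59) and DHCR7 (-0.58 and -0.59) passed as well, and DHCR7 passed without ribosomal RNA genes (adjusted p = 0.044). This comparison shares its liver bud libraries with the preceding one, and FDPS, CYP51A1 and FDFT1 passed in both.
Between neurons and HEK293T 0 of 8 members were called by edgeR, where 6.19% of all genes were lower and 6.35% higher. The differences ran from -0.43 for DHCR7 to 0.07 for CYP51A1, and 6 of 8 changed sign with library size only. HMGCS1 (-0.38, 95% interval -0.65 to -0.11) and FDFT1 (-0.26, interval -0.48 to -0.04) were lower in neurons at an unadjusted p under 0.05, that is 2 members, and DESeq2 called 2. HMGCS1 passed without neuron P-body replicate 1 (adjusted p = 0.043) or 2 (0.038), and LSS passed without replicate 2 (-0.61, adjusted p = 0.024). Intervals were wide for FDPS, from -0.49 to 0.51, and for MVD, from -0.91 to 0.69.

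The members were also compared by their level in the cytoplasm of the stem-cell-derived cells. All 8 were higher in neurons than in liver bud progenitors, by 1.88-fold for DHCR7 to 4.35-fold for HMGCS1, where 26% of all genes were higher and 25.8% lower. The median log2 difference was 1.69 over the members and -0.16 over all genes, and 0 members were lower, also at an unadjusted p under 0.05 and with DESeq2. Values here are TMM-scaled CPM of this comparison.
HMGCS1 measured 41.6 and 36.7 CPM in liver bud progenitors and 162 and 178 in neurons (log2 difference 2.12 ± 0.10, adjusted p = 4.33e-30). LSS measured 24.4 and 30.4 CPM against 127 and 107 (2.09 ± 0.12), and MVD 7.64 and 9.82 CPM against 35.8 and 36.4 (2.04 ± 0.18). In each case the levels lay far apart and the libraries did not overlap.
SQLE, FDFT1 and FDPS were higher by 1.77 ± 0.10, 1.62 ± 0.08 and 1.61 ± 0.17 on the log2 scale. The smallest differences were those of the later steps CYP51A1, at 14.3 and 16.1 CPM against 28.6 and 32.6 (1.01 ± 0.17), and DHCR7, at 19.5 and 20.1 CPM against 37.2 and 37.2 (0.91 ± 0.15). No alternative changed these 8 calls.

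**Figure D3:**
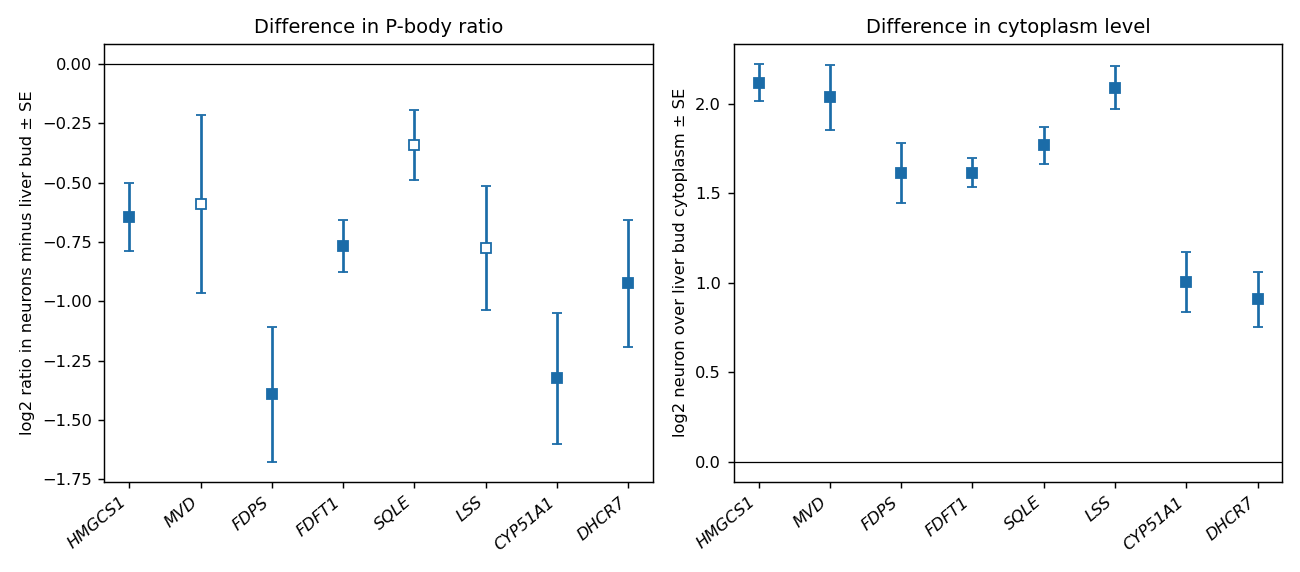
Left, difference between the log2 P-body to cytoplasm ratio in neurons and in liver bud progenitors for each member. Right, log2 difference in cytoplasm level between the same cells. Bars are standard errors and filled squares passed an adjusted p of 0.05: the left panel lies below 0 for 8 of 8 members (SQLE turned to 0.014 with library size only), 5 of them filled, and the right panel lies above 0 with 8 filled.

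Per kilobase of transcript, FDFT1 was the most abundant member in the cytoplasm of all 3 human cell types, at 116 ± 10.5 CPM per kb (SD, n = 2) in HEK293T, 69.6 ± 0.54 in liver bud progenitors and 185 ± 6.08 in neurons, followed by SQLE at 65.3 ± 2.55, 17.2 ± 1.74 and 50.5 ± 4.52. The remaining order varied. In HEK293T FDPS (24.7 ± 2.0) and DHCR7 (24.1 ± 0.96) lay within their spread, as did HMGCS1 (13.5 ± 1.22) and CYP51A1 (11.96 ± 1.27), with MVD (6.42 ± 1.82) and LSS (5.67 ± 0.23) last. In neurons HMGCS1 followed at 29.4 ± 1.90, then FDPS (24.5 ± 0.95) and LSS (22.2 ± 2.62), which did not differ beyond their spread, MVD (18.6 ± 0.22), DHCR7 (13.1 ± 0.01) and CYP51A1 (8.99 ± 0.82). In liver bud progenitors the 6 members below SQLE lay between 5.16 and 9.20. Mouse cells differed in that Hmgcs1 led, at 108 ± 0.01, ahead of Fdft1 (70.4 ± 2.26), Sqle (63.0 ± 0.18) and Dhcr7 (54.3 ± 0.82), while Fdps, Lss and Mvd lay between 21.7 and 22.9.

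The members' P-body ratios followed their base composition. HMGCS1 and SQLE, which had the smallest share of codons ending in G or C, had the highest ratios in HEK293T and neurons, and together with CYP51A1 they held the 3 highest in liver bud progenitors. DHCR7, with the largest share, had the lowest ratio in liver bud progenitors and neurons. The rank correlation (Spearman's rho) between this share and the log2 ratio was -0.905 in neurons as in liver bud progenitors and -0.833 in HEK293T over 8 members, and -0.821 over 7 in mouse cells. For the GC content of the whole transcript it was -0.69 in neurons and in HEK293T, -0.833 in liver bud progenitors and -0.857 in mouse cells. These are descriptions over few genes that share their libraries. CYP51A1 and FDPS departed from the order in HEK293T. CYP51A1 was at -0.71 with a share of 40.8%, and FDPS had the lowest ratio, -1.24, with a share of 67.1%. Mouse Fdps was likewise lowest, at -0.80 with a share of 67.8%, although Dhcr7 (70.3%) and Mvd (71.6%) had larger shares.
The same relation ran through all genes with at least 1 CPM, at a rho of -0.487 over 13062 genes in neurons, -0.57 over 12999 in liver bud progenitors, -0.513 over 11694 in HEK293T and -0.518 over 11592 in mouse cells. In neurons the 20% of genes with the smallest share (at most 41.6%) had a median log2 ratio of 0.75, and HMGCS1, SQLE and CYP51A1 (0.14, 0.14 and -0.50) lay below it. In liver bud progenitors this median was 0.81 (share of at most 41.3%), with HMGCS1 at 0.78, CYP51A1 at 0.81 and SQLE below it at 0.48. In HEK293T it was 0.54 (share of at most 40.6%), with HMGCS1 at 0.38 and SQLE at 0.20 below it. In the 20% with the largest share the median was -0.71 in neurons, -0.88 in HEK293T and -0.49 in liver bud progenitors. DHCR7 lay below it in all 3, at -1.51, -1.22 and -0.59. LSS (-1.18 and -1.05) and MVD (-1.02 and -1.05) lay below it in neurons and HEK293T. In liver bud progenitors LSS (-0.41) and MVD (-0.43) lay above it. For length, rho was 0 in neurons, 0.167 in liver bud progenitors, 0.429 in HEK293T and 0.643 in mouse cells for the 3′ UTR, which spans 56 bases in human FDPS and 3661 in human HMGCS1, and 0.333, 0.429, 0.667 and 0.679 in the same order for the whole transcript.

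**Figure D4:**
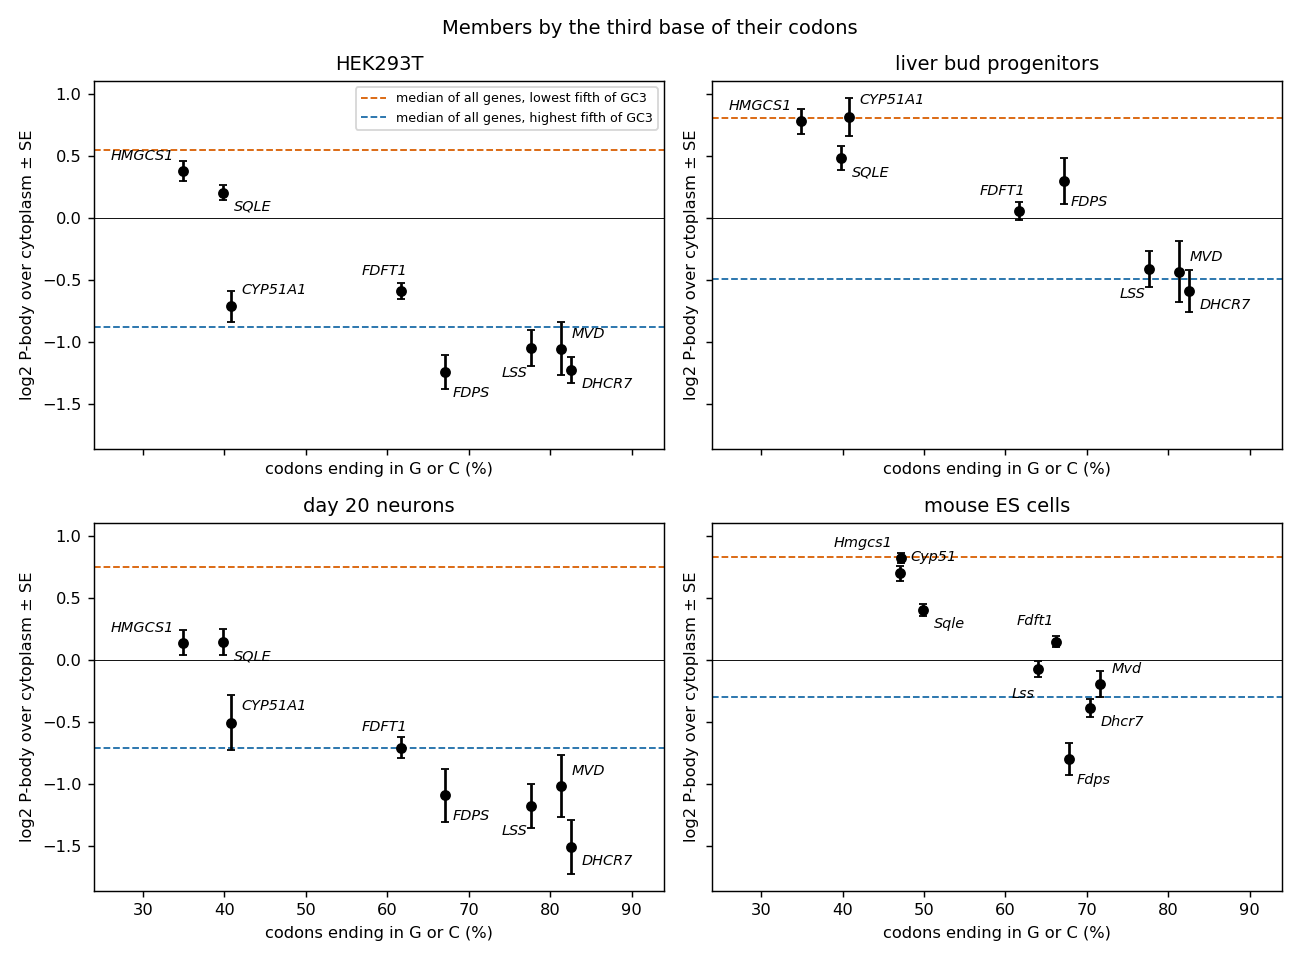
Log2 P-body to cytoplasm ratio with its standard error against the share of codons ending in G or C (%) for each member in 4 cell types. Dashed lines give the median ratio of all genes in the lowest (orange) and highest (blue) 20% of that share, for example 0.54 and -0.88 in HEK293T. The members slope downward in each panel.

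In the human annotation (GENCODE 44, hg38, MANE Select transcripts) HMGCS1 lies at chr5:43287470-43313412 on the minus strand, MVD at chr16:88651940-88663091 (minus), FDPS at chr1:155308866-155320665 (plus), FDFT1 at chr8:11802741-11839298 (plus), SQLE at chr8:124998505-125022283 (plus), LSS at chr21:46188446-46228774 (minus), CYP51A1 at chr7:92112153-92134477 (minus) and DHCR7 at chr11:71434411-71448393 (minus). They are protein-coding genes of 8 exons (FDFT1) to 22 (LSS).
Some counts can be shared with other genes. GENCODE names 8 pseudogenes of FDPS, of which 1 is in the count table, and 3 of CYP51A1, of which 0 are, and the way reads were divided among copies can move these counts. On the opposite strand RUSC1-AS1, also in the table, overlaps 587 exonic bases of FDPS, and no source used here states that counting in these tables used strand. HMGCS1 shares 2497 exonic bases and LSS 448 and 122 with opposite-strand noncoding genes of GENCODE that are outside the table. On the same strand, CYP51A1 shares 2844 and 2827 exonic bases with protein-coding genes of GENCODE that are outside the table. Its transcript has 3155 bases. Mouse Fdps shares 1124 exonic bases on the same strand with protein-coding Gm43738, also outside the table. In mouse, Ctsb overlaps 774 exonic bases of Fdft1 and 4930483K19Rik 381 of Lss on the opposite strand.

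The rest of the pathway was read from 4 lists, and the genes named are those with the largest rise and fall among the genes that passed. The counts of all 4 lists stand beside the shares of all genes tested. These were 19.3% higher and 22.8% lower in HEK293T and 21.4% and 17.1% in liver bud progenitors. In neurons they were 14.6% and 14.1%, and in mouse cells 25.8% and 20.6%. Of 13 further synthesis enzymes, 2 were higher and 6 lower in P-bodies of HEK293T (median -0.42), 6 higher and 1 lower in those of liver bud progenitors (0.52), 3 higher and 3 lower in those of neurons (-0.33) and, of 14 with Cyp51, 8 higher and 5 lower in mouse cells (0.31). IDI1, which isomerises isopentenyl diphosphate, had the highest ratio in the 3 human types, at 0.99 ± 0.12, 1.38 ± 0.18 and 1.14 ± 0.24, and Ggps1, which makes geranylgeranyl diphosphate, in mouse at 1.63 ± 0.07. EBP, a sterol isomerase, was lowest in HEK293T (-1.86 ± 0.16) and neurons (-1.57 ± 0.42, adjusted p = 0.216 without neuron cytoplasm replicate 2).
Of 7 SREBP pathway regulators, 1 was higher and 4 lower in HEK293T (median -0.29), 3 and 3 in liver bud progenitors (-0.04), 0 and 4 in neurons (-0.61) and 2 and 5 in mouse cells (-0.45). For the 0 in neurons, 1 had an unadjusted p under 0.05 and DESeq2 called 0. INSIG1, which retains the SREBP escort SCAP when sterol is plentiful, was the one higher in HEK293T (0.38 ± 0.11). Its call was lost with library size only (0.25, adjusted p = 0.057) and without cytoplasm replicate 2 (0.29). SCAP was lowest in HEK293T (-1.50 ± 0.10) and in mouse (-0.77 ± 0.08). SREBF1, a gene for the transcription factors themselves, was lowest in liver bud progenitors (-1.07 ± 0.24, adjusted p = 0.077 without cytoplasm replicate 2) and neurons (-1.51 ± 0.24). INSIG2 was highest in liver bud progenitors (0.92 ± 0.27, but 0.38 without cytoplasm replicate 2) and Mbtps2, an SREBP protease, in mouse (0.98 ± 0.06). The INSIG2 call was also lost with DESeq2 (adjusted p = 0.098) and in the single fit (0.086).
Of 10 genes for sterol uptake, transport and storage, 1 was higher and 6 lower in HEK293T (median -0.67), 2 and 5 in liver bud progenitors (-0.59), 0 and 6 in neurons (-0.80) and 3 and 3 in mouse (-0.26). The 0 in neurons was also 0 at an unadjusted p under 0.05 and with DESeq2. STARD4, a sterol carrier, was the highest in HEK293T (0.54 ± 0.14), liver bud progenitors (1.08 ± 0.14) and mouse (0.64 ± 0.08). NPC2, the lysosomal sterol carrier, was the lowest in HEK293T (-2.33 ± 0.23) and neurons (-1.90 ± 0.62). In neurons its call was lost without cytoplasm replicate 1 or 2, with DESeq2 (adjusted p = 0.077) and with library size only (0.057). The endocytic receptor LRP1 was the lowest in liver bud progenitors (-1.98 ± 0.06) and mouse (-1.11 ± 0.06).
Of 10 genes of fatty acid synthesis, 3 were higher and 7 lower in HEK293T (median -0.64), 4 and 4 in liver bud progenitors (-0.04) and 2 and 7 in neurons (-0.64), and of 9 tested in mouse 3 and 5 (-0.30). The elongase ELOVL6 was highest in all 4 cell types, from 0.90 ± 0.07 in HEK293T and 0.99 ± 0.04 in mouse to 1.21 ± 0.06 and 1.22 ± 0.12 in liver bud progenitors and neurons. FASN, the fatty acid synthase, was lowest in liver bud progenitors (-1.55 ± 0.07) and neurons (-1.61 ± 0.10), and the desaturase FADS2 in HEK293T (-1.94 ± 0.28) and mouse (-0.76 ± 0.09).

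**Figure D5:**
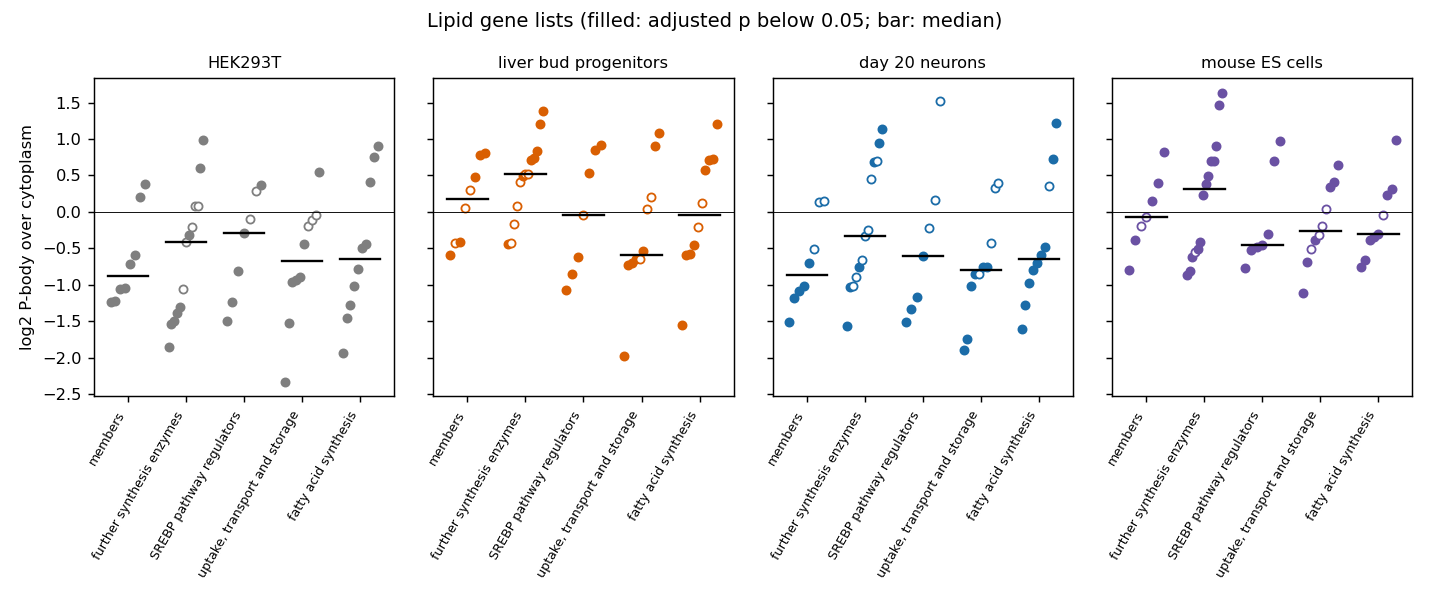
Log2 P-body to cytoplasm ratio of each gene of the members and of 4 lipid gene lists, in 4 cell types. Filled points passed an adjusted p of 0.05 and bars are medians, which for the members were -0.86 in neurons, -0.88 in HEK293T, 0.18 in liver bud progenitors and -0.07 in mouse cells.

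The lists were also set side by side between cell types. In neurons against liver bud progenitors 0 genes of the 4 lists had a higher P-body ratio, and 3 of 13 further enzymes, 2 of 7 regulators, 1 of 10 uptake genes and 4 of 10 fatty acid genes had a lower one. Of all genes tested, 9.21% were higher and 8.5% lower, and the 1 of 10 uptake genes lay near that share. The 0 held for each list at an unadjusted p under 0.05 and with DESeq2. The largest differences were those of EBP (-1.99 ± 0.47), MBTPS2 (-1.15 ± 0.27), NPC2 (-2.80 ± 0.42) and the desaturase FADS1 (-1.28 ± 0.11). EBP missed the threshold without liver bud P-body replicate 1 or cytoplasm replicate 2 (adjusted p = 0.071 and 0.053), and MBTPS2 without liver bud P-body replicate 2 or cytoplasm replicate 1 (0.057 and 0.057).
In HEK293T against liver bud progenitors 6 further enzymes and 2 regulators were lower with 0 higher (0 also at an unadjusted p under 0.05 and with DESeq2), while 3 uptake genes were higher and 3 lower and 1 fatty acid gene was higher and 3 lower. Of all genes tested, 15% were higher and 12.5% lower. At the extremes were ACAT2, an acetoacetyl-CoA thiolase (-2.05 ± 0.22), SCAP (-0.66 ± 0.14), LRP1 (1.26 ± 0.13), NPC2 (-3.01 ± 0.28), FASN (0.32 ± 0.11) and FADS1 (-1.63 ± 0.11). FASN fell to 0.15 with library size only (adjusted p = 0.376) and 0.13 after filterByExpr (0.414). It did not pass in the single fit (0.24, adjusted p = 0.308), without ribosomal RNA genes (0.24, 0.094) or with DESeq2 (0.31, 0.073), nor without liver bud P-body replicate 1, liver bud cytoplasm replicate 2, HEK293T P-body replicate 1 or HEK293T cytoplasm replicate 1 (0.079, 0.089, 0.083 and 0.221).
Between neurons and HEK293T only SC5D, a sterol desaturase (1.12 ± 0.17), 2 uptake genes led by LRP1 (-0.95 ± 0.16) and the fatty acid gene ACACA, an acetyl-CoA carboxylase (-0.44 ± 0.11), passed. Of all genes tested, 6.35% were higher in neurons and 6.19% lower. With library size only the ACACA difference was -0.0011 (adjusted p = 0.9999) and after filterByExpr -0.30 (0.078). ACACA also missed the threshold without neuron cytoplasm replicate 1, HEK293T P-body replicate 2 or either HEK293T cytoplasm library (adjusted p = 0.079, 0.065, 0.077 and 0.073). For the directions in which 0 passed, the numbers were 0 for further enzymes lower, 0 and 1 for regulators higher and lower, 1 for uptake genes higher and 1 for fatty acid genes higher at an unadjusted p under 0.05, and 0 with DESeq2. In the cytoplasm 8 of 13 further enzymes, 6 of 7 regulators, 3 of 10 uptake genes and 7 of 10 fatty acid genes were higher in neurons than in liver bud progenitors and 2, 1, 4 and 2 were lower. Of all genes tested there, 26% were higher and 25.8% lower. The extremes were MVK, mevalonate kinase (2.39 ± 0.34), against SC5D (-1.08 ± 0.11), SREBF2 (1.66 ± 0.08) against INSIG2 (-1.91 ± 0.45, but -1.22 without liver bud cytoplasm replicate 1, adjusted p = 0.147), the sterol exporter ABCG1 (3.09 ± 0.49) on the higher side, and FASN (1.75 ± 0.08) against ME1 (-2.08 ± 0.30).

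The genes whose 3 human log2 ratios came nearest to the members' medians were RHOC, NDUFB8, RAC1, RUSC1 and PHB2, at Euclidean distances of 0.111 to 0.155 among 4317 genes with at least 20 CPM in each cell type. RHOC, a small GTPase, had ratios of -0.96 in HEK293T, -0.81 in neurons and 0.23 in liver bud progenitors.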

How the data were processed

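Sorted P-bodies and their presort material gave 16 libraries of paired-end reads, and groups were taken from the labels. The values deposited by the authors are raw counts of reads for each symbol (hg38, mm10), with genes under 10 reads over all samples removed. The study's methods give nf-core with salmon for snapTotal-seq, and HISAT2 with featureCounts for Smart-seq; the tables do not say which made the polyA columns, and the copies of a gene share reads differently under each. The authors' DESeq2 fold changes and p-values per cell type were not used.

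Counts were tested with edgeR 4.0.16 (quasi-likelihood, TMM scaling, two-sided) in R 4.3.3 over all genes with at least 1 count in the libraries compared, and a Benjamini-Hochberg adjusted p under 0.05 was called. Fractions were compared on the 4 libraries of a cell type, ratios between cell types as an interaction on 8 libraries, and cytoplasm directly. A standard error is the log2 fold change over the root of its F value, and 95% intervals are normal. The study describes its sequencing replicates as biologically independent, while the labels do not say whether they were separate cultures, and p-values measure the spread between these libraries. Replicate counts differed beyond sampling noise (a chi-square of 2 to 21.1 per gene). The floor of 3 counts covers counting error only, and no source used here states molecular identifiers.

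Each test was repeated with filterByExpr, with DESeq2 1.42.0, with RLE factors or the library size alone as scaling, with the replicate number as a block, with no ribosomal RNA genes, with all 12 human libraries in a single fit, and without each library. The members and gene lists were chosen with earlier results of these data known. Named were all members, per list and comparison the called gene with the largest rise and fall at a mean of at least 1 CPM, and the 5 genes nearest to the members' median ratios; some results under this rule are not reported here. Coding sequences came from GENCODE 44 (MANE Select) and, for mouse, from the longest coding transcript of GENCODE M21. They covered 77.7% of all human symbols and 88.1 to 91.1% of those with at least 1 CPM. The fits were tested on simulated data. For liver bud progenitors and mouse cells, the fraction tests recovered 86% and 83% of genes changed 2-fold and 100% of those changed 4-fold. The cytoplasm test recovered 70% and 99%. The interaction of neurons with liver bud progenitors recovered 44% and 67%, so a member not called in an interaction may still differ. At most 0.0981% of unchanged genes were called. Far more genes were called in the data than were changed here, so these rates need not hold there. The changes were balanced, so the simulation could not test the scaling. Scaling by library size only moved the median log2 ratio of all genes by -0.40 in mouse cells, -0.13 in HEK293T, 0.17 in neurons and -0.18 in liver bud progenitors, by 0.35, -0.16 and 0.43 in the interactions of neurons with liver bud progenitors, HEK293T with liver bud progenitors and neurons with HEK293T, and by -0.37 between the cytoplasms.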

Additional observations from a re-analysis of the deposited data

Results flagged for a closer look

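The difference in P-body ratio between 2 cell types passed the interaction test for the following genes, given as log2 differences with edgeR adjusted p-values. Neurons were lower than liver bud progenitors for the members HMGCS1 (-0.64, adjusted p = 0.005), FDPS (-1.39, 0.0028), FDFT1 (-0.77, 0.00015), CYP51A1 (-1.32, 0.0033) and DHCR7 (-0.92, 0.026), and for EBP (-1.99), MBTPS2 (-1.15), NPC2 (-2.80) and FADS1 (-1.28). HEK293T was lower than liver bud progenitors for FDPS (-1.31, 4.31e-06), FDFT1 (-0.42, 0.0012) and CYP51A1 (-1.29, 5.32e-07), and for ACAT2 (-2.05), SCAP (-0.66), NPC2 (-3.01) and FADS1 (-1.63), and higher for LRP1 (1.26) and FASN (0.32, but 0.15 with library size only, adjusted p = 0.376). Neurons against HEK293T differed for SC5D (1.12), LRP1 (-0.95) and ACACA (-0.44, but -0.0011 with library size only). Library kit and cell type cannot be told apart where HEK293T is compared. With 2 libraries in a group, no test for outlying libraries was made.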

How the results depend on the processing

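The counts of members that moved by over 1.5 times were as follows. With library size only, the number called was 1 higher in HEK293T, 1 higher and 5 lower in mouse cells, 3 lower in neurons against liver bud progenitors and 6 lower in HEK293T against liver bud progenitors, and the share of all calls that were higher went from 55.6% to 28.2% in mouse cells, in neurons from 50.8% to 62%, in liver bud cells from 55.7% to 44.1%, from 52% to 78.9%, 54.5% to 40.6% and 50.6% to 88.2% in the interactions of neurons with liver bud progenitors, HEK293T with liver bud progenitors and neurons with HEK293T, and from 50.2% to 36.5% between the cytoplasms. After filterByExpr the number in mouse cells was 4 lower (and 2 higher, from 3), and the number lower was 6 in HEK293T against liver bud progenitors. In liver bud progenitors 1 was lower with DESeq2 and 1 in the single fit. In neurons against HEK293T, where 0 were lower, DESeq2 gave 2, RLE 1, no ribosomal RNA genes 2 and the single fit 2. Smaller moves were 3 lower with library size only in liver bud progenitors, 6 lower in neurons in the single fit, in neurons against liver bud progenitors 7 lower in the single fit, 6 without ribosomal RNA genes or with the block and 4 with DESeq2, and 4 lower in HEK293T against liver bud progenitors without ribosomal RNA genes. In mouse cells 2 were higher with DESeq2. With the replicate block 1 was lower in neurons against HEK293T (HMGCS1, adjusted p = 0.044), and LSS passed in neurons against liver bud progenitors (adjusted p = 0.002). Same-numbered fractions did not deviate together (correlations of -0.0282 to 0.0351), and the numbers were not taken as pairs. The study sorted P-bodies from the presort material, so fractions may be paired by preparation. Noise between single libraries can hide this, and the correlation cannot show that pairs are absent. The block changed no other member's call.

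Directions turned, with library size only, for FDFT1 in liver bud progenitors (-0.13), Fdft1 (-0.25) and Sqle (-0.0038) in mouse cells, SQLE in neurons against liver bud progenitors (0.014) and, in neurons against HEK293T, HMGCS1 (0.051), MVD (0.32), FDFT1 (0.18), SQLE (0.24), LSS (0.17) and DHCR7 (0.0089). After filterByExpr FDFT1 in liver bud progenitors was -0.032 and MVD in neurons against HEK293T 0.026. In that comparison FDPS and CYP51A1 were -0.059 and -0.0033 with DESeq2, -0.059 and -0.0026 with RLE, -0.13 and -0.075 without ribosomal RNA genes and -0.087 and -0.027 in the single fit. The cause was not tested.

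Leaving out 1 library assumes that the lone library varies like the other groups. It gave 1 to 2 members higher in HEK293T (1 without P-body replicate 2), 1 to 2 lower in liver bud progenitors (1 without replicate 2 of either fraction), 4 to 8 lower in neurons against liver bud progenitors (8 without neuron P-body replicate 1, 4 without any liver bud or either neuron cytoplasm library), and 0 to 2 lower in neurons against HEK293T (2 without neuron P-body replicate 2). Differences ranged from -0.16 to 0.11 for SQLE in HEK293T against liver bud progenitors and, in neurons against HEK293T, from -0.15 to 0.16 for FDPS, -0.61 to 0.0050 for LSS, -0.52 to 0.22 for MVD and -0.16 to 0.27 for CYP51A1. The lowest count of a member was 56, for MVD in a liver bud cytoplasm library.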
